A study of Mus musculus with 4 samples.

Results

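The genes examined were the nuclear genes of oxidative phosphorylation (OXPHOS), the set of mitochondrial enzymes that passes electrons from nutrients to oxygen and makes ATP. They were taken by symbol from the GENCODE vM21 annotation of the mm10 genome, as autosomal protein-coding genes whose symbol begins with Nduf, Sdha, Sdhb, Sdhc, Sdhd, Uqcr, Cox4, Cox5, Cox6, Cox7, Cox8 or Atp5. The rule gave 95 gene records with 94 symbols, of 20807 autosomal protein-coding genes in all. Atp5o stood for 2 of the records. The rule used no measured value. X-linked subunit genes such as Ndufa1, Ndufb11 and Cox7b, and the subunits encoded by mitochondrial DNA, lay outside it.

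Single-nucleus ATAC-Seq (scATAC-Seq), in which the Tn5 transposase cuts open chromatin in barcoded nuclei, was done on hepatocytes from the liver of adult male C57BL/6J mice aged 10-12 weeks and fed a normal diet. One library came from undamaged liver (PHx 0 h), and the others from liver that was regrowing 48, 72 and 96 h after surgery to remove part of it (partial hepatectomy, PHx), when the remaining cells divide. All hepatocytes were freed by collagenase perfusion before nuclei were extracted. Each time point had 1 library, so time, animal, preparation and library cannot be told apart, no test was possible and no p-value is given. The 0 h and 48 h libraries came from 1 hepatocyte preparation each, that of 48 h from 1 mouse, and for 72 and 96 h the number of animals is not stated in the sources used.

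Nuclei were barcodes with at least 1000 counts in peaks: 3977, 3892, 4256 and 3224 at 0, 48, 72 and 96 h, with medians of 26005, 11629, 4841 and 3681.5 counts. Libraries shared 27 to 60 barcodes in pairs, at most 1.51% of either. Peaks had been called in each library on its own, 119839, 158652, 164113 and 77580 of them, so the stretch of DNA counted for a gene differs between libraries and is given with the values. Of 10 hepatocyte markers, the 9 found in the annotation under the listed symbol had promoter peaks in every library and summed to 4348, 5495, 3416 and 2991 CPM (counts per 1000000 counts of the library) over 320525, 352705, 255130 and 107476 bp. Marker lists of other liver cells were far lower: endothelial genes (8 listed, 4 to 7 with a peak) summed to 54.0 to 73.5, Kupffer and myeloid genes (8 listed, 1 to 5 with a peak) to 8.90 to 118, stellate and mesenchymal genes (8 listed, 3 to 6 with a peak) to 47.8, 68.9, 81.7 and 86.8, and biliary genes (4 listed, 2 to 4 with a peak) to 11.1, 17.6, 24.6 and 24.6 CPM. The stellate and biliary sums were thus higher in each library after PHx than at 0 h, over fewer bp at 96 h. Per kb of covered peak the hepatocyte markers had 13.6, 15.6, 13.4 and 27.8 CPM, each above any other list in the same library. The gap was smaller on this scale, as the other lists with a peak had 3.98 to 8.26 at 0 h and 10.1 to 16.7 at 96 h. The 4 lymphoid markers had no peak except 1 at 48 h, and Lyve1, Adgre1 and Marco had none in any library. The part of other cells in the OXPHOS values was not tested.

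Complexes I to IV form the respiratory chain. NADH dehydrogenase (complex I) and succinate dehydrogenase (complex II) feed electrons to the cytochrome bc1 complex (complex III), cytochrome c oxidase (complex IV) hands them to oxygen, and ATP synthase (complex V) uses the proton gradient they build. Hepatocytes are rich in mitochondria, and most of these subunits are used by every cell with mitochondria, while a few subunits of complex IV exist as isoforms restricted to muscle, lung, testis or other tissues. Nuclear respiratory factor 1 (NRF1), the ETS factor GABP (NRF2) and YY1 are known regulators of many of these promoters.

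RefSeq promoters (GRCm38.p6, 250 bases before to 50 after the start) could be matched to 73 of the 95 gene records and to 13867 of the 20807 genes, with a start within 1000 bp of the GENCODE 5′ end. These promoters were rich in CG dinucleotides, with a median of 20 per 300 bases against 16 over all genes. On either strand, the NRF1 core CGCATGCG stood in 9 OXPHOS promoters (12.3%, against 2.94% of all promoters), the ETS and GABPA motif CCGGAAG in 19 (26.0% against 13.5%), and the YY1 motif AAGATGG in 11 (15.1% against 6.63%). The general elements were near their overall share: GGGCGG (GC box) in 47.9% against 52.1%, CCAAT in 43.8% against 38.7% and TATAAA in 11% against 11.5%. An NRF1 core and an ETS motif stood together in 4 promoters (5.48% against 0.584%), those of Atp5k, Atp5l, Cox6a1 and Uqcr11. These are letter matches only. CGCATGCG reads the same on both strands, and matches that touch can share bases.

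The stretches below lie just upstream of the start on the gene's own strand, end before the first annotated exon and are cut where an exon of another gene begins. Capitals mark any of the 6 motifs. Ndufaf2, Ndufaf5 and Atp5e are shown because they had the highest ratios at 96 h, Atp5b and Sdhb because they had the lowest ratios of complexes V and II at 48 h, and Cox6a1 and Uqcr11 as 2 of the 4 promoters with both an NRF1 core and an ETS motif. Motifs counted in the 300-base windows can lie outside the bases printed, as do the ETS motifs of Cox6a1 and Sdhb, the CCAAT box of Sdhb and the NRF1 cores of Uqcr11 and Ndufaf5. All of the bases printed lay inside a called peak in every library. They are at chr13:108158626-108158730 (Ndufaf2, minus strand), chr2:140170565-140170645 (Ndufaf5, plus), chr2:174464106-174464305 (Atp5e, minus), chr10:128083073-128083272 (Atp5b, plus), chr4:140961021-140961202 (Sdhb, plus), chr5:115348982-115349129 (Cox6a1, minus) and chr10:80406831-80407030 (Uqcr11, minus).
Ndufaf2: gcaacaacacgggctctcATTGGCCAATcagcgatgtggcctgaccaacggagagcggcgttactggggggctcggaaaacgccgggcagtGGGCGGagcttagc
Ndufaf5: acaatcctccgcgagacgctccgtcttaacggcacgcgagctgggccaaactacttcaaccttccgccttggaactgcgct
Atp5e: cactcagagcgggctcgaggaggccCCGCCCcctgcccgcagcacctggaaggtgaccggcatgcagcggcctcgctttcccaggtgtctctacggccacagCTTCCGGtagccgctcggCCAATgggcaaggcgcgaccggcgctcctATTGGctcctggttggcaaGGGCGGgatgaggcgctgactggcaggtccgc
Atp5b: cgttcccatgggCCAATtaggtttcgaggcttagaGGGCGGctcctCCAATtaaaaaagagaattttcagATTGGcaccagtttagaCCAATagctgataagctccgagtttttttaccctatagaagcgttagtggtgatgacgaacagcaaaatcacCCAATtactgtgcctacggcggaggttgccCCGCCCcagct
Sdhb: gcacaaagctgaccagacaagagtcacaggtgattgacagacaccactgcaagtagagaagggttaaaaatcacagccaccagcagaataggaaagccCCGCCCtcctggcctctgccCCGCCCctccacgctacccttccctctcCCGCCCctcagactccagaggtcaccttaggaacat
Cox6a1: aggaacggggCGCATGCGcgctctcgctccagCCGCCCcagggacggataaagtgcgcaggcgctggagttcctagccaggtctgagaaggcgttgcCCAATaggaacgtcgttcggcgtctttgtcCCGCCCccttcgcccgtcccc
Uqcr11: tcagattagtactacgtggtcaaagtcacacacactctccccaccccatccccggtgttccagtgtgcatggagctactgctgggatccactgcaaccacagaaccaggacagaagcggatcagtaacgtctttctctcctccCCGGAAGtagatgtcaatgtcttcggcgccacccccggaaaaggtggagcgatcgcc

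The Ndufaf2 stretch holds a CCAAT box on each strand side by side, and runs only 105 bases because an exon of another gene begins beyond it. Shared starts were frequent among OXPHOS genes. Of the 95 records, 36 (37.9%) had a TSS of another protein-coding gene within 1 kb, 35 of them on the opposite strand, against 14.8% of all genes. Counts at such a promoter cannot be assigned to one gene of the pair. Examples are Ndufaf2 with Ercc8, Ndufaf5 with Esf1, Sdhd with Timm8b, Ndufb5 with Mrpl47, Ndufs6 with Mrpl36 and Atp5j with Gabpa, the gene of the alpha subunit of GABP.

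Nearly every OXPHOS gene had an open promoter in every library. A peak within 1 kb of a TSS was called for 89, 91, 90 and 88 of the 95 records at 0, 48, 72 and 96 h, against 70.8%, 75%, 75.4% and 67.0% of all genes. The 4 records without a peak in any library were Cox6a2, Cox7b2, Cox8c and the second Atp5o record. The median level was 26.8, 23.3, 21.9 and 25.1 CPM over a median of 2596, 2500, 2128 and 1255 bp of peak, and all genes with a peak had medians of 25.7, 21.9, 22.5 and 29.0 CPM over 2472, 2673, 2133 and 1400 bp. Per kb of covered peak the OXPHOS medians were 10.2, 8.02, 9.74 and 19.9 CPM, against 8.69, 7.07, 9.05 and 18.4 over all genes. On the scale per kb the 96 h library was therefore the highest for both, with the shortest peaks.

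Without Ndufb9, whose 48 h peak is described further on, the peaks of all OXPHOS genes together held 3585 CPM at 0 h (95% interval 3571 to 3599), 2484 at 48 h (2466 to 2501), 2241 at 72 h (2214 to 2267) and 2615 at 96 h (2579 to 2652). The intervals are exact Poisson intervals on counts divided by 2, since both ends of a fragment count, and cover counting error only. The 3 later libraries lay below 0 h, and the peaks summed shortened from 380 kb to 322, 225 and 126 kb. Because a peak of one library can be cut into several in another, all peaks in contact or overlap, whichever library they came from, were also joined into merged regions, and every peak of a library inside a region was counted. Over the 117 merged regions of these genes the sums were 3622, 2833, 2720 and 3179 CPM, 78.2%, 75.1% and 87.8% of 0 h at 48, 72 and 96 h. Counts still came from each library's own peaks, which covered 392, 386, 300 and 161 kb of the 422 kb of merged regions, so these are not ratios over equal DNA.

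When the nuclei of each library were divided into 4 equal groups by their counts, the groups ranged from 3539 to 3636 CPM at 0 h, from 2379 to 2575 at 48 h, from 2183 to 2403 at 72 h and from 2586 to 2676 at 96 h, again without Ndufb9. The median counts of these groups were 3785 to 69495.5 at 0 h and 1483 to 31355 in the later libraries. All 4 groups of a library were counted in that library's own peaks, so these values bear only on depth per nucleus within a peak set. With every nucleus thinned to 1000 counts, a nucleus had a count at a mean of 3.19, 2.25, 1.92 and 2.14 of the 94 records other than Ndufb9 (SD over nuclei 1.81, 1.52, 1.38 and 1.47), and 4.50%, 10.5%, 15.1% and 11.6% of nuclei had none. The median number of thinned counts in promoter peaks of any gene was 506, 459, 439 and 488, so part of this order was shared by all promoters.

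The first comparison asked how these promoters stood at 48 h, when many hepatocytes divide, relative to undamaged liver. Of 89 OXPHOS genes with a peak and a mean of at least 50 counts in the pair of libraries, 79 were lower than at 0 h, as were 8976 of 14628 genes in all, with a median log2 ratio of -0.33 against -0.13 over all of them. By the size rule of at least 1.5-fold, 20 (22.5%) were lower and 2 higher, where 9.71% of all genes were lower and 15.5% higher. Over merged regions 16 were lower and 0 higher, against 7.36% and 13.8% of all genes, and the medians were -0.33 and -0.13. Among the 62 OXPHOS genes whose peak lengths at 48 and 0 h were near-equal (the shorter at least 0.8 times the longer), 7 were lower and 0 higher, against 5.82% and 2.88% of all such genes, and the median was -0.32 against -0.21.

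At 72 h the OXPHOS median was -0.37 against -0.07 over 14524 genes. Of the 89 genes, 29 (32.6%) were at least 1.5-fold lower and 0 higher, where 19% of all genes were lower and 19.3% higher. Merged regions gave 23 lower and 0 higher, against 14.2% and 19.5% of all genes. At near-equal peak length only 45 OXPHOS genes could be compared, and 3 were lower and 0 higher, a share of 6.67% that is near the 4.77% of all genes, while 13% of all genes were higher. Their median was -0.21 against 0.04.

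At 96 h the OXPHOS median was -0.11 against 0.17 over 13826 genes. Of 88 genes, 5 were at least 1.5-fold higher and 19 (21.6%) lower, where 23.1% of all genes were higher and 16.4% lower. Merged regions gave 6 higher and 14 lower (15.9%), against 23.6% and 10.0% of all genes. Only 2 OXPHOS genes had near-equal peak lengths at 96 and 0 h, so this comparison cannot be separated from peak length, and per kb of covered peak all 88 were higher than at 0 h, as were 13714 of 13826 genes, with a median of 0.95 against 1.1. In each of the comparisons with 0 h the OXPHOS median was below that of all genes, on the scale of CPM and per kb. The comparisons share the 0 h library and are not independent of each other.

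**Figure D1:**
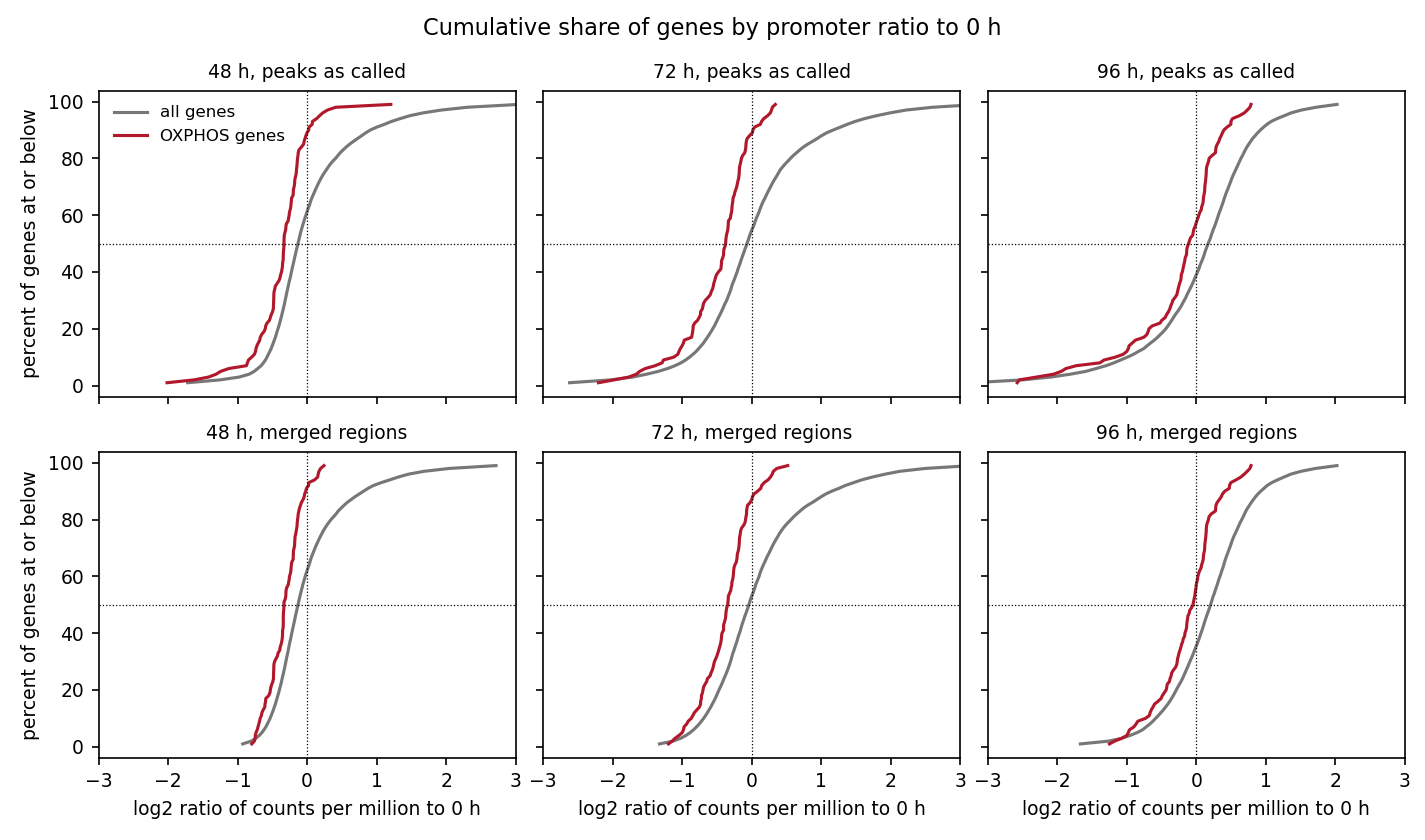
Cumulative share of genes (vertical axis, percent) by log2 ratio of promoter CPM to 0 h (horizontal axis), for OXPHOS genes in red and all genes in grey, in peaks as called (top) and in merged regions (bottom). The red curve lies left of the grey one at the median in each panel, and at a ratio of 0 it is the higher of the pair.

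Among the 88 genes with a peak in every library, 47 (53.4%) were highest at 0 h, against 29.1% of 13871 such genes in the genome, and 3 (3.41%) were lowest at 0 h, against 25.5%. The lowest library was that of 72 h for 39 of them (44.3%, against 26.6% of all such genes) and that of 48 h for 29 (33.0%, against 32.5%, the background share). Levels were higher at 96 than at 72 h for 68 of the 88 genes (77.3%), against 69.7% of all genes. This is a description of 4 libraries in which the median covered peak length of OXPHOS genes fell from each library to the next. The median over all genes with a peak was 2472, 2673, 2133 and 1400 bp, so it rose at 48 h.

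**Figure D2:**
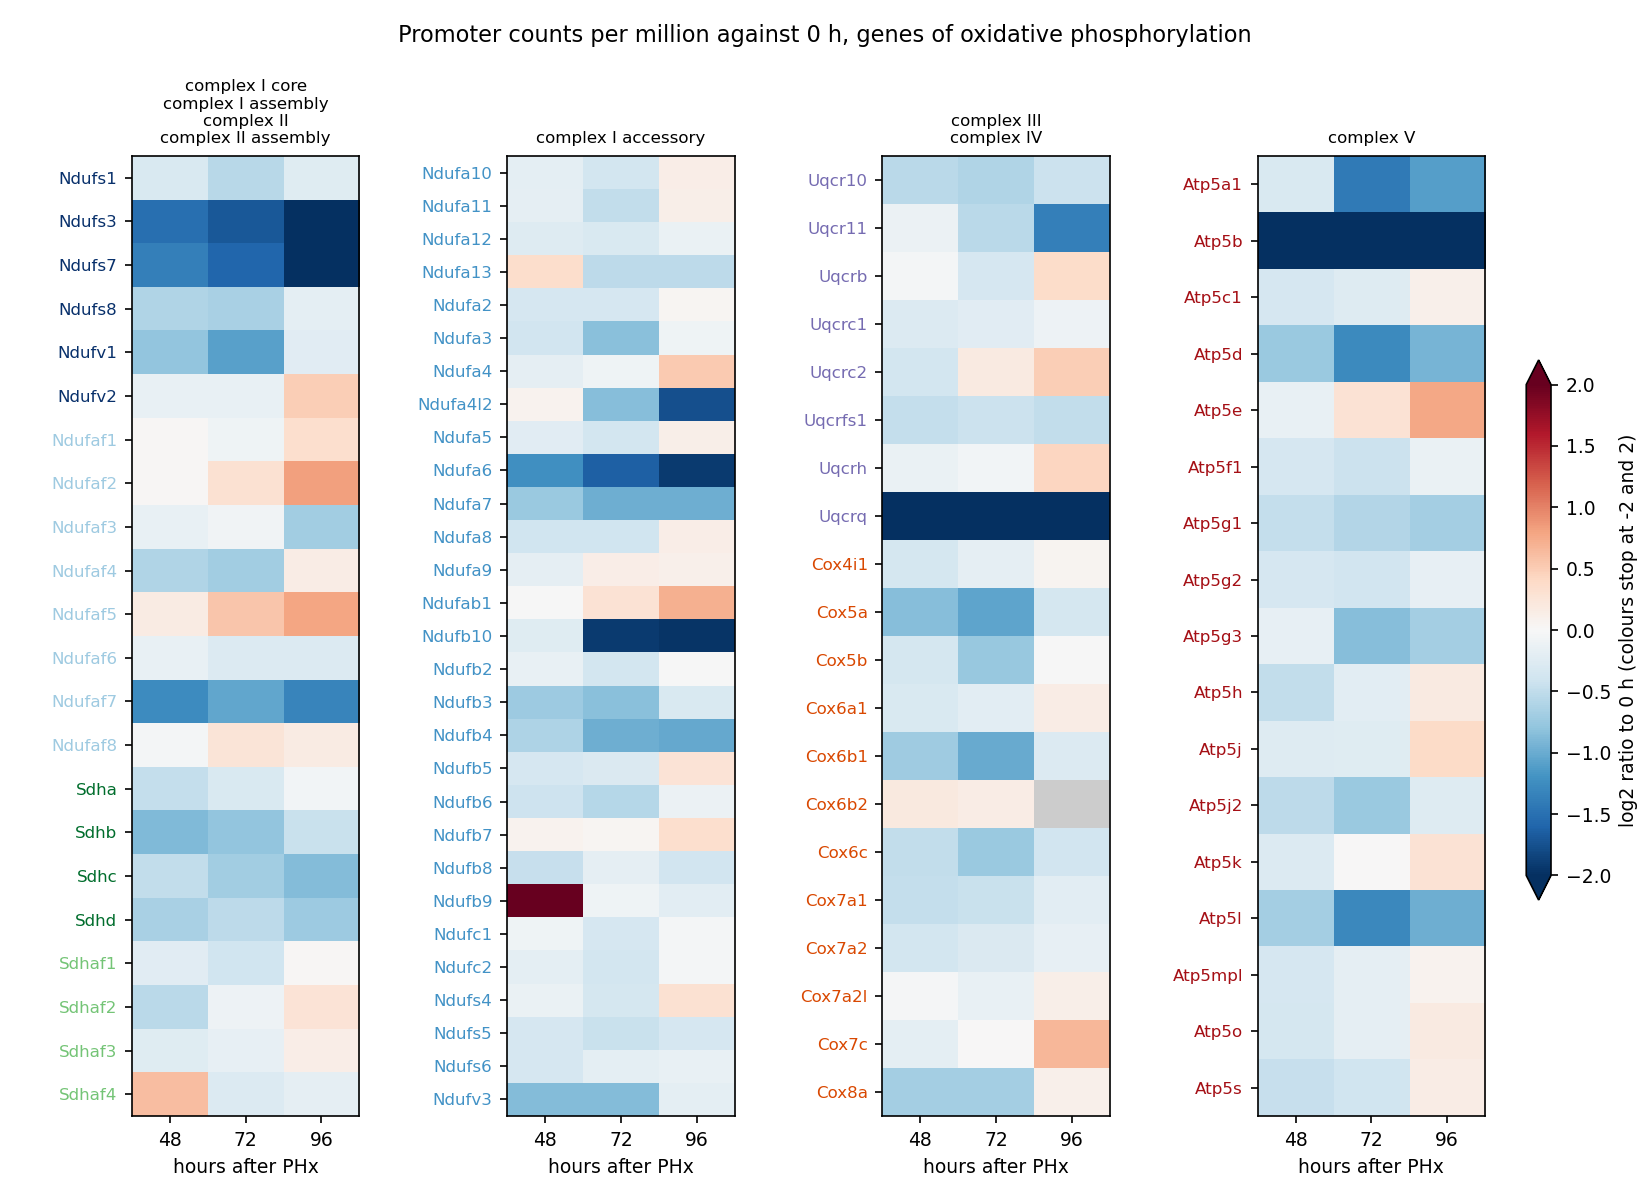
Log2 ratio of promoter CPM to 0 h for OXPHOS genes with a ratio (1 gene not drawn), by complex and by hours after PHx, with blue lower, red higher and grey no peak in the pair. Most cells are pale blue, the dark blue cells at Ndufs3, Ndufs7, Uqcrq and Atp5b are genes with wide peaks at 0 h, and the dark red cell is Ndufb9 at 48 h.

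The ratio of counts followed the ratio of covered length across OXPHOS genes. Pearson's r between the log2 ratios was 0.94, 0.78 and 0.85 at 48, 72 and 96 h (n = 89, 89 and 88 genes, which share the libraries and their peak calls), and 0.90, 0.91 and 0.86 over all genes. Without genes over 5000 bp of peak it was lower for OXPHOS genes, at 0.63, 0.57 and 0.61 (n = 68, 74 and 73). Over all such genes it was 0.90, 0.89 and 0.78. At 0 h 15 OXPHOS genes had over 5000 bp of promoter peak, at 48 h 19, at 72 h 6 and at 96 h 0, of 89, 91, 90 and 88 with a peak, while 21.7%, 23.8%, 14.1% and 4.09% of all genes with a peak did. Several of the strongest ratios belonged to these genes.

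**Figure D3:**
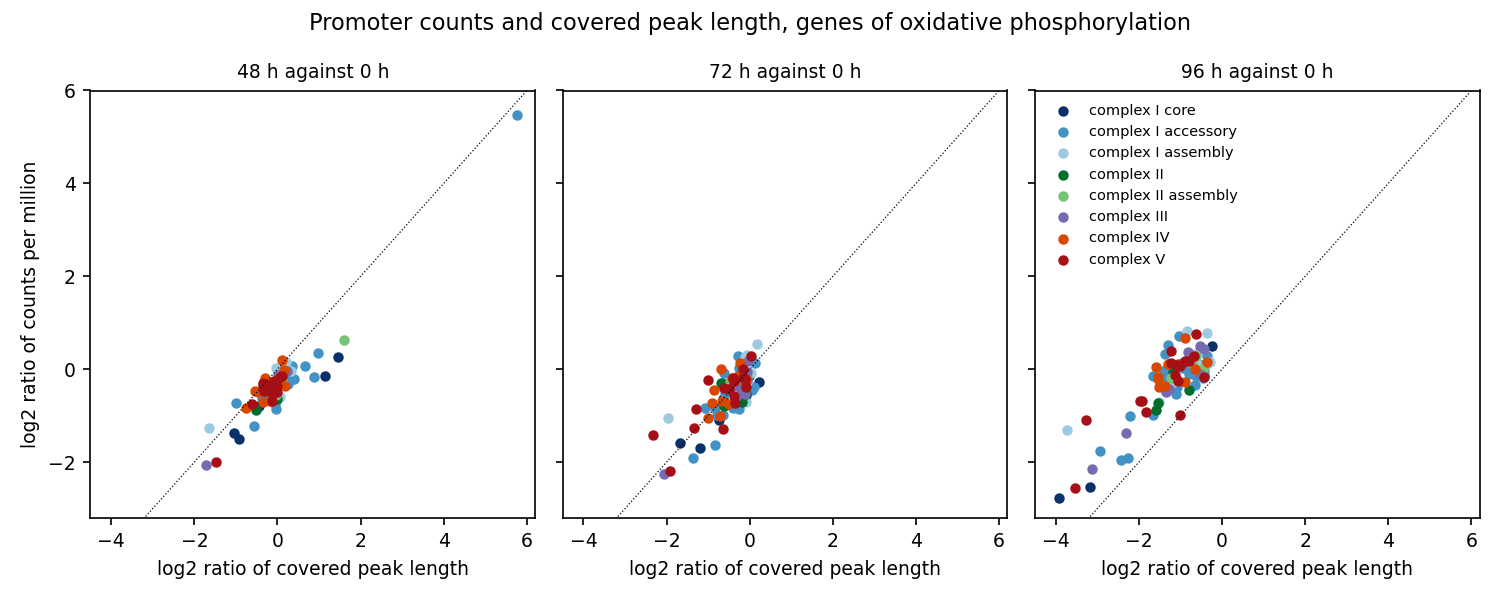
Log2 ratio of CPM (vertical axis) against log2 ratio of covered peak length (horizontal axis) for OXPHOS genes at 48, 72 and 96 h relative to 0 h, coloured by complex, with a dotted line of equality. Points run along a rising band in each panel, Ndufb9 stands alone at the upper right at 48 h, and at 96 h every point lies left of 0.

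Complex I takes electrons from NADH through 7 core subunits kept since bacteria, which carry the flavin and iron-sulfur centres. Their median log2 ratio was -0.60, -0.64 and -0.23 at 48, 72 and 96 h, with 4, 4 and 2 of 7 at least 1.5-fold lower (57.1%, 57.1% and 28.6%, against 9.71%, 19% and 16.4% of all genes) and 0 higher (against 15.5%, 19.3% and 23.1%). These shares of all genes are the ones against which the other groups are read, and shares of so few genes move far with 1 gene. Per kb of peak, 2, 0 and 0 of the 7 core genes were lower, and at 96 h all 7 were at least 1.5-fold higher, as were 88.5% of all genes. Over merged regions the medians were -0.34, -0.55 and -0.23, with 3, 3 and 1 lower. Ndufv1 (ENSMUSG00000037916.14, chr19:4007384-4012806), which binds the flavin, had a compact peak and measured 23.2, 13.4, 10.9 and 19.8 CPM over 1638, 1214, 989 and 770 bp. It was low at 48 and 72 h and close to its 0 h level at 96 h. Ndufs8, an iron-sulfur subunit, had the same order with 22.3, 14.7, 14.3 and 19.6 CPM over 2297, 2206, 1466 and 953 bp.

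Ndufs7 (ENSMUSG00000020153.14, chr10:80249121-80256794), which carries the last iron-sulfur cluster before ubiquinone, had the highest level of all OXPHOS genes at 0 h. It measured 420, 163, 140 and 71.9 CPM over 42872, 20604, 13355 and 4717 bp. At 0 h a single peak, chr10:80247888-80290759, also took in starts of Gamt, a creatine synthesis gene, and Dazap1. Over the merged region, Ndufs7 measured 420, 255, 239 and 235 CPM, so its log2 ratios of -1.37, -1.58 and -2.55 became -0.72, -0.81 and -0.84. Counted at the 5′ end of the gene alone, they were instead -3.71 at 48 h and -4.18 at 96 h. Ndufs3, another core subunit, measured 123, 43.2, 38.1 and 18 CPM over 15893, 8361, 6877 and 1045 bp in peaks that also covered Kbtbd4. Its ratios of -1.51, -1.69 and -2.77 became -0.34, -0.50 and -0.55 over the merged region, below the 1.5-fold rule at each time. Ndufv2, a core subunit with an iron-sulfur centre, measured 44.0, 39.5, 39.8 and 62.1 CPM over 1937, 4256, 1905 and 1648 bp.

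Of the 29 genes grouped by symbol as accessory subunits, which surround the core, 1 was higher and 5 lower at 48 h, 0 and 8 at 72 h, and 1 and 5 at 96 h, with medians of -0.23, -0.37 and -0.09. Their lower shares were 17.2%, 27.6% and 17.2%, the last near that of all genes. The group includes Ndufa4 and Ndufa4l2, described further on with complex IV, and Ndufa4l2 was among those lower at 72 and 96 h. Of the 29, 6, 2 and 0 were at least 1.5-fold lower per kb of peak. Ndufab1, the mitochondrial acyl carrier protein, measured 19.9, 19.8, 24.4 and 32.7 CPM, the last 0.71 higher than 0 h on the log2 scale, while its peaks shortened from 1674 to 810 bp. By the share of nuclei with a count after thinning to 1000 counts, its ratio at 96 h was only 0.12. Ndufa6 measured 90.4, 38.7, 29.2 and 24.1 CPM over 9701, 6568, 5390 and 2025 bp, and its ratios of -1.22, -1.63 and -1.91 were -0.70, -1.19 and -1.15 over the merged region, past the 1.5-fold rule on both measures. Its wide peak at 0 h also covered a start of Smdt1, which those of 48 and 72 h did not. Per kb of peak Ndufa6 had 9.32, 5.89, 5.41 and 11.9 CPM, so on that scale it was above 0 h at 96 h. Ndufb10, whose wide peak at 0 h also covered the ribosomal protein gene Rps2, measured 58.9, 50.05, 15.7 and 15.1 CPM over 6213, 6919, 2404 and 1152 bp. Its merged ratios were -0.23, -1.13 and -0.66. Ndufa13 measured 38.6, 49.0, 26.9 and 26.8 CPM, with a peak at 48 h of 8529 bp that also took in starts of Tssk6 and Yjefn3.

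Ndufb9 (ENSMUSG00000022354.4, chr15:58933756-58939488), a subunit of the membrane arm, had the largest ratio of the set, and it turned on one peak call. It measured 27.6, 1224, 26.0 and 23.8 CPM over 2808, 152492, 2562 and 1115 bp. At 48 h the caller had placed its promoter in 1 peak, chr15:58930557-59083048, together with starts of the neighbouring Tatdn1 and of Mtss1, a membrane-bending actin regulator. The same interval held 10, 1, 11 and 37 peaks at 0, 48, 72 and 96 h, and over it the libraries had 1122 (95% interval 1114 to 1130), 1224 (1211 to 1236), 1061 (1043 to 1079) and 1109 (1085 to 1133) CPM. Over merged regions the 48 h ratio of Ndufb9 was 0.14 in place of 5.47, and per kb of peak it was -0.29. Similarly, Sdhaf4, an assembly factor of complex II, was the other gene past the rule upward at 48 h, with 16.8, 25.9, 14.0 and 14.9 CPM over 2019, 6117, 1443 and 860 bp. Its 48 h ratio was 0.62 as called, 0.50 over the merged region and -0.98 per kb.

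The 8 assembly factors of complex I (Ndufaf1 to Ndufaf8) had the highest medians among the roles in CPM, -0.09, -0.08 and 0.15, with 2, 2 and 2 of 8 lower. Per kb of peak at 96 h their median of 0.91 lay below those of complexes IV (1.16) and V (1.08). Both genes past the rule upward at 96 h came with shorter peaks. Ndufaf5 (ENSMUSG00000027384.6, chr2:140170649-140203689), a hydroxylase that modifies Ndufs7, measured 26.5, 29.6, 38.7 and 45.7 CPM over 1902, 2176, 2132 and 1479 bp, with intervals of 25.3 to 27.8 at 0 h and 40.9 to 50.8 at 96 h. Ndufaf2 (ENSMUSG00000068184.7, chr13:108002715-108158623), a chaperone of late assembly, measured 27.1, 27.5, 33.6 and 47.6 CPM over 2634, 2634, 2525 and 1479 bp, with intervals of 25.9 to 28.4 and 42.8 to 52.8. Their ratios at 96 h were 0.78 and 0.81 in peaks as called and also over merged regions. Where a merged region holds no further peak, the ratio is equal by construction, so this equality is not a check. Ndufaf4 differed from Ndufaf5 and Ndufaf2, with 47.7, 31.5, 29.3 and 52.8 CPM over 3515, 3638, 3312 and 2868 bp. Ndufaf7, a methyltransferase, measured 71.5, 29.9, 34.7 and 28.7 over 16674, 5305, 4240 and 1252 bp.

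**Figure D4:**
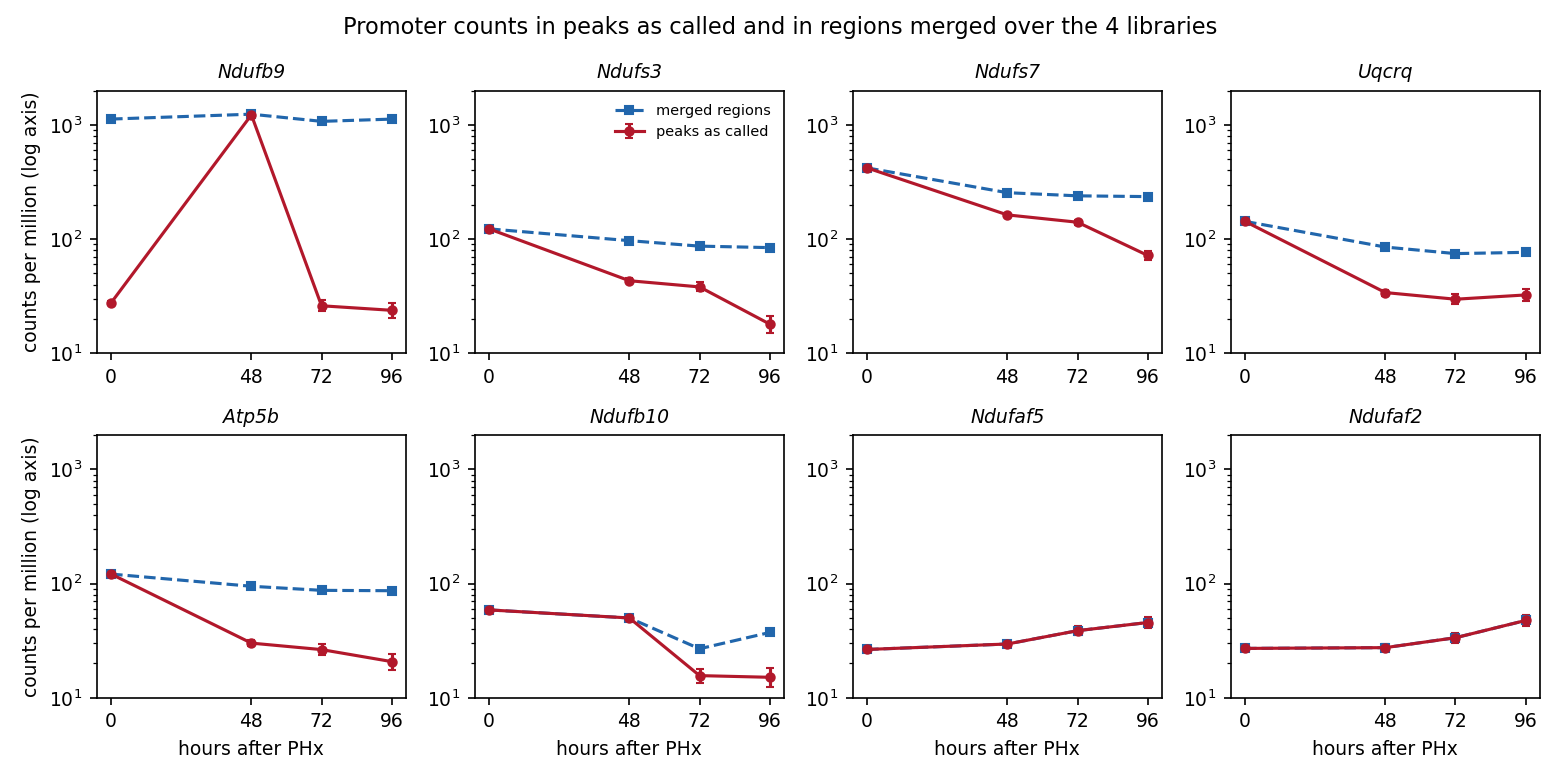
Promoter CPM (log axis) by hours after PHx for 8 OXPHOS genes, in peaks as called (red circles, bars are 95% Poisson intervals) and over merged regions (blue squares). For Ndufb9 the merged line stays between 1073 and 1241 while the red one leaps at 48 h, for Ndufs3, Ndufs7, Uqcrq and Atp5b the merged line falls much less than the red one, and for Ndufaf5 and Ndufaf2 the lines coincide. Lines coincide by construction where a merged region holds no further peak.

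Complex II, the only complex wholly encoded in the nucleus and also an enzyme of the citric acid cycle, was lower at each later time for all 4 subunits. Sdha, the flavoprotein, measured 19.6, 14.1, 15.9 and 18.9 CPM over 2194, 1908, 1357 and 963 bp. Sdhb, the iron-sulfur subunit, measured 59.6, 32.5, 34.6 and 44.0 over 4999, 3509, 3267 and 2876 bp. The membrane anchor Sdhc measured 25.1, 17.9, 15.4 and 13.7 over 2858, 2475, 2531 and 954 bp, and the anchor Sdhd 39.5, 25.1, 27.5 and 23.9 over 3855, 3834, 3592 and 1332 bp. Sdha and Sdhb came nearer to 0 h at 96 h than at 48 h, whereas Sdhc and Sdhd were lowest at 96 h. The medians of the 4 were -0.57, -0.61 and -0.58, and -0.57, -0.59 and -0.53 over merged regions, with 2 of 4 past the rule at each time on both measures. Per kb of peak the medians were -0.32, -0.30 and 0.76, with 1, 0 and 0 of 4 lower. The assembly factors Sdhaf1 to Sdhaf4 had medians of -0.23, -0.21 and 0.07.

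Complex III passes electrons from ubiquinol to cytochrome c. Its 8 genes had medians of -0.32, -0.38 and -0.26, with 1, 2 and 2 lower (12.5%, 25% and 25%, not far above all genes) and 0 higher. Per kb, 0 of the 8 were at least 1.5-fold lower at each time. Uqcrq, a small subunit, measured 143, 34.0, 29.7 and 32.4 CPM over 16227, 4962, 3866 and 1863 bp. The 0 h peak, chr11:53416259-53432485, took in Leap2, an antimicrobial peptide gene of liver, and Gdf9. Over the merged region its ratios of -2.07, -2.26 and -2.14 were -0.75, -0.94 and -0.90, still past the rule. Uqcr11, the smallest subunit, measured 25.3, 23.3, 17.4 and 9.78 CPM, while its peaks shortened from 4304 to 874 bp at 96 h. The catalytic Rieske subunit Uqcrfs1 measured 28.2, 20.2, 20.9 and 20.02 CPM over 2562, 2500, 2223 and 1003 bp. The core protein Uqcrc2 was highest at 96 h, with 31.0, 24.0, 35.2 and 43.8 CPM over 2317, 2207, 2259 and 1615 bp.

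Complex IV had 17 genes, of which 12, 12 and 11 could be compared. The medians were -0.36, -0.36 and -0.00, with 3, 5 and 0 lower, which is above the share of all genes at 48 and 72 h (25% and 41.7%) and below it at 96 h. The merged regions gave the same counts, but per kb of peak 0 were at least 1.5-fold lower at each time. The medians per kb were -0.16 at 48 h, above the -0.21 of all genes, and 0.06 at 72 h, below the 0.18 of all genes. At near-equal length 1 of 8 was lower at 48 h and 0 of 4 at 72 h. Cox5a, which lies on the matrix side, measured 40.9, 22.8, 19.7 and 32.1 CPM over 4494, 2665, 2234 and 1723 bp. Cox7c measured 31.1, 27.1, 31.2 and 49.4 over 1891, 1541, 1164 and 1026 bp and was 0.67 higher at 96 h. Cox6b1, which faces cytochrome c, measured 16.4, 10.0, 8.13 and 13.6 CPM over 1651, 1295, 1011 and 894 bp.

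Isoforms of complex IV known from other tissues had no peak called or low CPM in these libraries. Cox4i1, the common form of subunit IV, measured 31.6, 24.7, 27.9 and 32.7 CPM over 3993, 3470, 2981 and 1324 bp, while the lung form Cox4i2 had a peak only at 48 h, with 0.629 (0.382 to 0.977) over 305 bp. Cox6a1 measured 20.4, 16.5, 17.6 and 22.6 over 2339, 2262, 2189 and 1831 bp, and the heart and muscle form Cox6a2 had no peak called. Cox7a2 measured 30.5, 23.7, 25 and 27.2 over 3028, 3414, 2800 and 1043 bp, and the muscle form Cox7a1 8.33, 5.98, 6.15 and 7.16 over 1500, 1032, 833 and 516 bp. The testis form Cox6b2 measured 6.04, 6.89 and 6.67 at 0, 48 and 72 h over 1706, 1832 and 1451 bp and had no peak at 96 h, the shallowest library. Cox8a measured 17.4, 10.8, 10.8 and 18.7 over 1808, 1608, 1133 and 870 bp. The muscle form Cox8b had peaks only at 48 h (3.47 over 1589 bp) and 72 h (0.890 over 302 bp), and the testis form Cox8c none. In every library with a peak for both, the common form was above the restricted one in CPM, and only for Cox6b1 and Cox6b2 at 72 h did their intervals overlap (6.62 to 9.88 and 5.31 to 8.28). Peaks of the restricted forms were shorter, and per kb the gap could be smaller. Cox7a2 had 10.1, 6.94, 8.93 and 26.1 CPM per kb, and Cox7a1 5.55, 5.80, 7.38 and 13.9. Without a peak call the deposited table holds no count for a gene, so an absent peak is not a level of 0. The lowest levels at 0 h were those of Cox6b2, Cox7a1 and Ndufb8 (12.9 CPM).

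Ndufa4, now known as a subunit of complex IV, and its hypoxia-induced relative Ndufa4l2 gave the reverse order at 0 h in CPM. Ndufa4 measured 45.9, 40.5, 43.3 and 66.1 CPM over 4471, 4774, 2934 and 1823 bp. Ndufa4l2 measured 106, 112, 59.1 and 31.3 over 11983, 15238, 6726 and 1578 bp. Per kb of covered peak Ndufa4 was the higher of the pair in every library. The wide peaks at 0 and 48 h also covered a start of Shmt2, the mitochondrial serine hydroxymethyltransferase. Over the merged region Ndufa4l2 measured 121, 112, 101 and 122 CPM, with a 96 h ratio of 0.02 in place of -1.76.

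**Figure D5:**
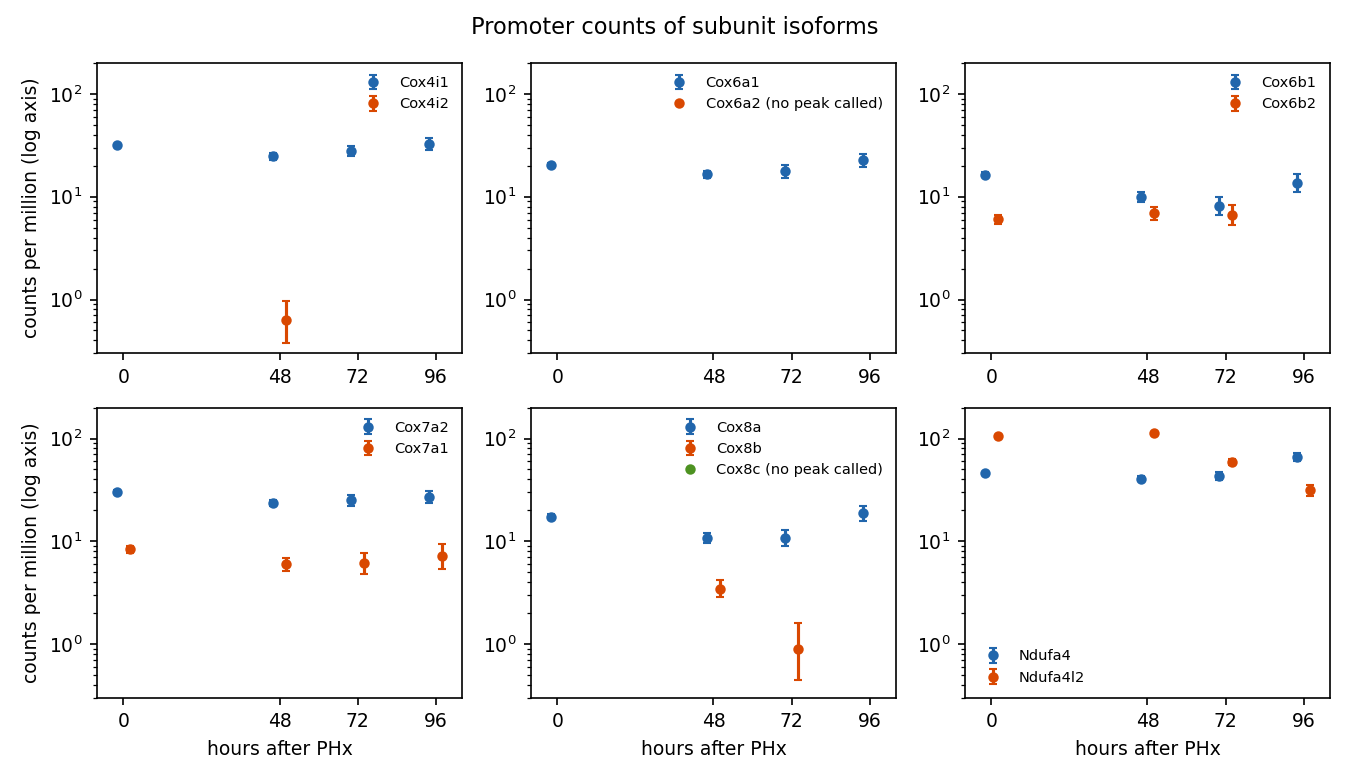
Promoter CPM (log axis) by hours after PHx for pairs or triples of subunit isoforms, with 95% Poisson intervals, points set slightly apart for clarity and none drawn where no peak was called. The common forms of complex IV subunits sit between 8.13 and 32.7, above their restricted partners, whereas Ndufa4l2 lies above Ndufa4 except at 96 h.

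Complex V had 17 comparable records of 18, with medians of -0.34, -0.40 and -0.13. As called, 3, 6 and 6 were lower and 0, 0 and 1 higher, but over merged regions only 1, 3 and 3 were lower. The shares were 17.6%, 35.3% and 35.3% as called, and over merged regions 5.88%, 17.6% and 17.6%, against 7.36%, 14.2% and 10.0% of all genes. Of the 17, 0, 1 and 0 were at least 1.5-fold lower per kb of peak. Atp5b (ENSMUSG00000025393.12, chr10:128083273-128090391), the catalytic beta subunit, measured 121, 30.1, 26.5 and 20.8 CPM over 16232, 5839, 4313 and 1393 bp. Its widest peaks at 0 h were one of 7560 bp at its first start and one of 6095 bp that also held a start of Baz2a. Over merged regions Atp5b measured 121, 94.9, 87.4 and 86.7, and its ratios of -2.01, -2.20 and -2.55 became -0.35, -0.47 and -0.48. At the 5′ end alone they were -0.91, -1.01 and -1.60. Atp5a1, the alpha subunit, measured 74.9, 60.7, 28.2 and 35.0 over 14196, 11077, 2828 and 1472 bp, and Atp5d 116, 69.5, 48.2 and 61.3 over 16053, 10506, 6337 and 4522 bp.

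Other genes of complex V had narrower peaks. Atp5l, a subunit that helps join the enzyme into dimers, measured 22.7, 14.2, 9.26 and 11.5 CPM over 2596, 2365, 1666 and 1288 bp. Its ratios of -0.67, -1.29 and -0.98 were the same over merged regions, but per kb of peak they were -0.54, -0.65 and 0.04. Atp5e, the epsilon subunit of the central stalk, measured 20.8, 18.7, 25.2 and 35.4 over 1763, 1893, 1787 and 1139 bp. Its ratio of 0.77 at 96 h was the same over the merged region. For Atp5l and Atp5e, too, equal ratios follow by construction where the merged region holds no further peak. In CPM, Atp5l and Atp5e thus stood on opposite sides of 0 h at 96 h, while per kb all 17 genes of the complex were above it.

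Genes that work beside the complexes are given next. Of 24 electron carriers and assembly factors of complexes III to V, all with a ratio, 3, 4 and 3 were at least 1.5-fold lower and 1, 0 and 0 higher, with medians of -0.34, -0.34 and 0.08. The lower shares of 12.5%, 16.7% and 12.5% were above that of all genes at 48 h and below it at 72 and 96 h. On the scale per kb, 2, 0 and 0 were lower. Cycs, somatic cytochrome c, measured 35.6, 24.6, 23.4 and 38.2 CPM over 2267, 2253, 2010 and 1462 bp, and Cyc1, the cytochrome c1 subunit of complex III that the symbol rule does not reach, 25.7, 21, 20.1 and 24.2 CPM over 2385, 2569, 2181 and 1360 bp. Of 16 regulators and genes of mitochondrial DNA upkeep, 4, 6 and 2 were lower and 0, 0 and 1 higher, with medians of -0.27, -0.43 and 0.07. Their lower share at 96 h, 12.5%, was below that of all genes. Per kb of peak at 72 h, 0 were lower and 4 higher, with a median of 0.19 against 0.18 over all genes. Nrf1 measured 37.1, 34.7, 38.0 and 50.02 CPM over 2539, 3261, 2343 and 1595 bp. Esrra, the estrogen-related receptor alpha, measured 43.6, 25.5, 29.0 and 35.8 CPM over 3341, 3084, 3127 and 2434 bp. Tfam, which packages mitochondrial DNA, measured 33.5, 31.3, 30.9 and 48.5 CPM over 3163, 3496, 2890 and 2249 bp. Tfb1m, a mitochondrial rRNA methyltransferase, was the 1 gene past the rule upward at 96 h, with 34.3, 27.5, 37.9 and 54.9 CPM over 1982, 2679, 1851 and 1622 bp.

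Ribosomal protein genes, which are likewise used by every cell and mostly have CpG-rich promoters, are given beside the OXPHOS genes. The 78 mitochondrial ribosomal protein genes gave medians of -0.31, -0.24 and 0.14 over the later libraries, with 10, 19 and 12 lower (12.8%, 24.4% and 15.4%, the last below the share of all genes) and 0, 0 and 7 higher. The 86 comparable cytosolic ones, of 96, had medians of -0.25, -0.59 and -0.25, with 11, 44 and 28 lower (12.8%, 51.2% and 32.6%) and 7, 1 and 3 higher. The cytosolic median was below that of all genes at each time, and the mitochondrial one at 48 and 72 h but level with it at 96 h, 0.14 against 0.17. On the scale per kb, 3, 0 and 0 mitochondrial and 20, 8 and 0 cytosolic ribosomal protein genes were lower. No difference between the families was tested. Within the OXPHOS promoters, the 19 with an ETS motif had medians of -0.42, -0.21 and 0.13, and the 51 or 52 without one -0.34, -0.39 and -0.13. The 9 with an NRF1 core had medians of -0.27, -0.40 and 0.14, and the 61 or 62 without one -0.34, -0.37 and -0.13. These are descriptions, without a test.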

How the data were processed

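Hepatocyte nuclei of 4 libraries, 1 per time point, were profiled by 10x scATAC-Seq. The authors made the counts with Cell Ranger ATAC (version 1.1.0 in the file headers) on mm10. Each deposited count is the whole number of transposase cut sites of a barcode in a peak. The other deposited files hold barcodes and peak positions, without scores. Between 87.3% and 88.6% of values were even, so 2 counts were treated as 1 fragment for the intervals. The sources used here do not state the study's cutoffs for nuclei.

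Barcodes with at least 1000 counts were kept, and no doublet caller was run. Counts in all peaks within 1 kb of any GENCODE vM21 TSS of a gene were summed and scaled to CPM, counts per 1000000 counts of the library. Ratios needed a peak in both libraries and a mean of at least 50 counts. The size rule was 1.5-fold, and peak lengths were near-equal where the shorter was at least 0.8 times the longer. The OXPHOS genes, the other lists, the motifs and the rule for named genes (the 4 highest and 4 lowest ratios per comparison, the 3 highest and lowest levels at 0 h, isoform pairs, complex II, genes without a peak) were chosen with earlier results of these data known. Merged regions and the limit of 5000 bp were alternatives chosen after seeing the data. A few further genes named in the text, such as Ndufv1, Ndufs8, Cox5a, Cox7c, Uqcr11, Uqcrc2 and Atp5l, were chosen after their values were seen. The values of 1 gene that this rule names are not reported here. The ratio step was tested on simulated data. Python 3.11.15, numpy 2.4.6, scipy 1.17.1, pandas 2.3.3 and matplotlib 3.10.9 were used. Promoter sequences are those of RefSeq, GRCm38.p6.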

Additional observations from a re-analysis of the deposited data

How the results depend on the processing

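The median OXPHOS log2 ratio minus that of all genes was -0.20, -0.31 and -0.28 at 48, 72 and 96 h, and was negative at each time under every alternative that could change it; scaling to promoter counts shifts all genes alike and cannot. It moved at 48 h to -0.11 at near-equal peak length and -0.097 per kb, and at 96 h to -0.54 at near-equal length, which left 2 OXPHOS genes, -0.15 per kb and -0.18 thinned. Scaling to promoter counts moved the medians of all genes to -0.0015, 0.14 and 0.23.

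At 48 h the 2 genes at least 1.5-fold higher became 1 with nuclei thinned to 1000 counts, 1 by a 2-fold rule, and 0 at near-equal length, per kb, over merged regions and without genes over 5000 bp of peak. The 20 lower became 13 when scaled to promoter counts, 7 at near-equal length, 11 per kb, 13 without wide peaks and 6 by 2-fold. At 72 h the 0 higher became 1 when scaled to promoter counts and 4 per kb, and the 29 lower became 3 at near-equal length, 4 per kb, 18 without wide peaks and 13 by 2-fold. At 96 h the 5 higher became 3 thinned, 0 at near-equal length, 71 per kb (where 88.5% of all genes were higher) and 0 by 2-fold, and the 19 lower became 0 at near-equal length and per kb, 7 without wide peaks and 11 by 2-fold. In each of these settings the share of OXPHOS genes that were higher was below that of all genes, and the share that were lower was above it, except at 96 h at near-equal length and per kb, where no OXPHOS gene was lower. Near-equal length and the limit on wide peaks leave fewer genes. Elsewhere the cause was not tested.

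Among the 4 highest and 4 lowest ratios per comparison, 6 past the 1.5-fold rule turned sign per kb of peak. They were Ndufb9 to -0.29 and Sdhaf4 to -0.98 at 48 h, and Ndufs3 to 1.16, Atp5b to 1.0, Ndufs7 to 0.64 and Uqcrq to 0.98 at 96 h. Beyond those extremes, all 88 OXPHOS genes were above 0 h per kb at 96 h, so each of the 19 at least 1.5-fold lower in CPM turned sign. Of the other values of named genes, 145 stayed within counting error and 53 moved. The 145 include 24 with no count minimum, 4 at near-equal length and 8 without wide peaks. Such settings only choose which genes are compared and cannot change the ratio of a single gene, so those values are no check. No paired analysis was possible because each time point had 1 library. The 96 h library, with 14935507 counts, gives the widest intervals.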
